A study of Mus musculus with 13 samples.

Results

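GFPdim cells of the mouse small intestine were compared with the GFPbright stem cells of the same crypts and with the epithelium of the villus, to find genes whose expression peaks or dips between crypt base and villus. For each gene, the mean of the 3 GFPdim arrays was set against the mean of the group means of the 4 GFPbright and 3 villus arrays, as log2 of the intensity. Of 17097 genes, 3224 (18.9%) had a GFPdim mean above both other groups and 4617 (27.0%) had one below both. All animals were C57BL/6 mice carrying Lgr5-EGFP-ires-CreERT2, which places GFP and a CreERT2 recombinase under control of the stem cell gene Lgr5. GFPbright and GFPdim cells, named GFP_High and GFP_Low in the study, were sorted from dissociated crypts by their GFP, and villus samples were epithelium of the same mouse line. Each sort combined 3 mice, so the spread between arrays is one between pools and not between animals. Villus cells came from the whole villus epithelium, and the array methods name sorting for all groups without stating a gate for villus. The labels give no age and no treatment of the mice. The 3 GFPdim arrays of the hair follicle, which bring the series to 13 arrays, were used only in an alternative fit.

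Stem cells at the base of the crypt divide continuously. Their daughters first multiply and then become either absorptive enterocytes or secretory cells. Secretory daughters give goblet cells, which release mucus, Paneth cells, which stay at the crypt base and release antimicrobial peptides, enteroendocrine cells, which release hormones, and tuft cells, which sense luminal signals. Neurog3 is a basic helix-loop-helix transcription factor that is switched on briefly in endocrine precursors and is lost again in mature endocrine cells. GFP protein outlasts the transcript, so daughter cells that no longer express Lgr5 remain dimly fluorescent. The comparison therefore asks which genes are at their highest or lowest in daughter cells of the crypt.

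Lgr5 itself was read first as a check of the sort. It was at 793.1, 532.8, 576.5 and 696.7 on the GFPbright arrays, at 12.6, 66.1 and 14.0 on the GFPdim arrays, and at 6.8, 4.8 and 6.6 on the villus arrays. All GFPdim values lay under the GFPbright ones and above the villus ones, with GFPdim 2 the highest of the GFPdim group. This order follows the titles, whereas 1 label field names the opposite level for 3 of the GFP-sorted intestinal arrays (GFPbright 2, GFPdim 2 and GFPdim 3) and a high level for the 3 villus arrays. The titles were used throughout. The 75th percentile of intensity was 37.6 on GFPdim 1 and 40.6 to 52.1 on the other intestinal arrays, and medians were 7.8 to 8.2. Log2 values of arrays of one group correlated at 0.9815 to 0.9923 across genes, which are not independent replicates.

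A gene was called a peak gene when GFPdim was higher than GFPbright and also higher than villus. The larger of the p-values of both differences in limma, a linear model with moderated variances, was adjusted over all genes by the Benjamini-Hochberg procedure and had to be under 0.05. A dip gene was called likewise where GFPdim was below both. This gave 94 peak genes (0.55% of the genes) and 18 dip genes (0.105%). GFPbright and GFPdim arrays can share a code in their titles, whose meaning the labels do not state. With this title code as a random block, 121 peak genes, among them all 94, and 30 dip genes, among them all 18, were called. The 3 GFPdim arrays were all above the other 7 arrays in 2.32% of all genes and all below them in 2.52%. The 94 peak and 18 dip genes were among these, which nearly follows from the call itself and adds nothing to it. The smaller of the differences, called prominence here, had a median log2 of 1.45 in the peak genes and was at least 1 in 75 of them. The contrast with the mean of the other groups alone called 12.3% of genes higher and 12.8% lower, since it also takes genes that lie between both groups. An intensity of 7.45, the 95th percentile of 86 probe sets for olfactory, vomeronasal and taste receptors, was taken as the background level. Folds against a group that did not exceed this level were computed against the level itself and are written as "at least". RNA of a mixed population cannot tell fewer cells of a type from less RNA per cell.

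**Figure D1:**
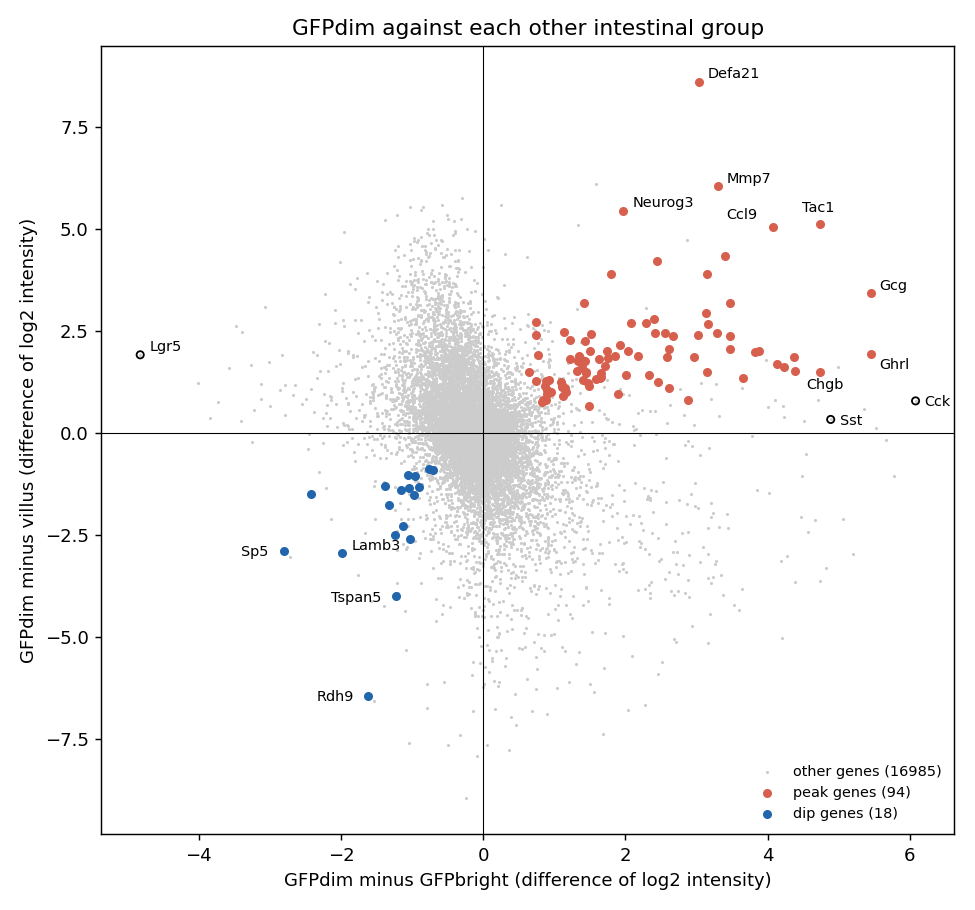
Each point is 1 of 17097 genes, with the difference in log2 intensity of GFPdim from GFPbright on the x axis and from villus on the y axis. The 94 peak genes (red) sit in the upper right quadrant and the 18 dip genes (blue) in the lower left, and open circles mark Lgr5, Cck and Sst, which were not called.

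Secretory genes made up a large share of the peak genes. Of 189 genes measured in lists of enteroendocrine, Paneth, goblet and endoplasmic reticulum (ER) folding genes, 42 were peak genes, against 0.55% of all genes. The lists were chosen with earlier results of these data known, so this share is a description and not a test. The lists of enteroendocrine genes held 16 of them, those of Paneth and goblet cells 22, and that of ER folding 7, with some genes in more than 1 list. Of the 94 peak genes, 49 were in none of the 24 lists that were looked at. None of the 18 dip genes was in the secretory lists.

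Promoters of 6 peak genes, chosen with their values known, are shown here, since they stand for the groups described in what follows: the endocrine factor Neurog3, the hormone genes Tac1, Gcg and Ghrl, the Paneth cell protease Mmp7 and the ER folding enzyme Pdia6. Each runs from 250 bases before to 50 bases after the most upstream start that RefSeq gives (build GRCm38.p6), 5′ to 3′ on the strand of the gene. Capitals mark matches on either strand to 6 motifs: the E-boxes CAGATG and CAGCTG, which basic helix-loop-helix factors can bind, CTTTGA and CTTTGT, which fit the core of sites of the Wnt effector Tcf4, the ER stress element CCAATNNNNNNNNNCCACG, and TGACGTG, a site of the factor Xbp1.
Neurog3: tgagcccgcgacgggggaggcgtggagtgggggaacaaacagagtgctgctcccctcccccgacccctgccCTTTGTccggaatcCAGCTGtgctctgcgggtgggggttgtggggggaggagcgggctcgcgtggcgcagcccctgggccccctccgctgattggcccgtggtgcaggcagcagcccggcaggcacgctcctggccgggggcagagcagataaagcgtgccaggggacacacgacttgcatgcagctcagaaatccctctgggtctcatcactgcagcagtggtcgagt
Tac1: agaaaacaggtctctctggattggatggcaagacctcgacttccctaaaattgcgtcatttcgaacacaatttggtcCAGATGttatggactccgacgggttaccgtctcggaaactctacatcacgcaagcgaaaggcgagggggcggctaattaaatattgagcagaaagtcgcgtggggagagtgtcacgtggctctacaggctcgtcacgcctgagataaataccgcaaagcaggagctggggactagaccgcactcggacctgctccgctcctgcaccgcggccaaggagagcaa
Gcg: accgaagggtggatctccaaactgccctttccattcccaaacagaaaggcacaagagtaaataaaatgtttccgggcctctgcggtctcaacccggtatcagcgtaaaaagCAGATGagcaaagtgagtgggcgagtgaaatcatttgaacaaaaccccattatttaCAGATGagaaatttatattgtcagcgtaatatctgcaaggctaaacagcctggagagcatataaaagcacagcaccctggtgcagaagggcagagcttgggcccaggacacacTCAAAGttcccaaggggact
Ghrl: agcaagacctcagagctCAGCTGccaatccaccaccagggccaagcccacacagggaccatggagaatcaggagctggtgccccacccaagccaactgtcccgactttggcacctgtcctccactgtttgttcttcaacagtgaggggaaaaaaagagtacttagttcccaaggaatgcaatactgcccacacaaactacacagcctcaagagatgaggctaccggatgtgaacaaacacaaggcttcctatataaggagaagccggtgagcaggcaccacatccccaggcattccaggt
Mmp7: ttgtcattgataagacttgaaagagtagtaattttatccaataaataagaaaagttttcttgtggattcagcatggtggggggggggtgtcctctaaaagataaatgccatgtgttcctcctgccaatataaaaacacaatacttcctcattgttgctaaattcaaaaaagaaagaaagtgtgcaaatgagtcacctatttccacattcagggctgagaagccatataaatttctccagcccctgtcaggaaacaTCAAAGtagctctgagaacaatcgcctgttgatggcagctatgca
Pdia6: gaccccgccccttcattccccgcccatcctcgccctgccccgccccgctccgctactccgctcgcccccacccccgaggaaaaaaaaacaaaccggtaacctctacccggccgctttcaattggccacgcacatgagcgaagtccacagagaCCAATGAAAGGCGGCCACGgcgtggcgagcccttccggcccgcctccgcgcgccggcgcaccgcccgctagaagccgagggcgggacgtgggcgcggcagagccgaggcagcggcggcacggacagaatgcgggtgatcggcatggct
Neurog3 lies at chr10:62132840-62133139 on the plus strand and holds 1 CAGCTG and 1 CTTTGT. Tac1 (chr6:7554811-7555110, plus strand) holds 1 CAGATG, and Gcg (chr2:62483604-62483903, minus strand) holds 2 of them and 1 match to CTTTGA in reverse. Ghrl (chr6:113719862-113720161, minus strand) has 4 starts in the table, and the one shown holds 1 CAGCTG. Mmp7 (chr9:7691840-7692139, plus strand) has 1 match to CTTTGA after its start. Pdia6 (chr12:17266339-17266638, plus strand) carries the whole ER stress element. Over all starts of a gene, 59 of the 94 peak genes and 14 of the 18 dip genes were found in the RefSeq table. CAGATG was found in 17 of these 59 (28.8%; 19.2% of all 27025 genes) and in 1 of the 14 dip genes, CAGCTG in 16 (27.1%; 18.3% of all) and in 3 dip genes. In the 11 endocrine peak genes with a promoter in the table each of these E-boxes occurred in 6. CTTTGA was found in 10 of the 59 (16.9%; 18.2% of all) and in 2 of the 14 dip genes, Sp5 and Elmo1, and CTTTGT in 13 (22.0%; 21.0% of all) and in 3 dip genes. The ER stress element was found in Pdia6 alone of the 59, against 0.137% of all genes, and TGACGTG in Spdef and Fkbp11, against 2.22%. A match is a description of these letters and not a bound site, and motifs of 6 letters occur often in windows of 300 bases.

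Several transcription factors of the endocrine lineage were higher in GFPdim cells than in stem cells and in villus. Of 26 measured, 6 were peak genes (0.55% of all genes): Neurog3, Insm1, Nkx2-2, Isl1, St18 and Pax4. In 16 of the 26 the GFPdim mean was above both groups (18.9% of all genes), and in none was it below both (27.0%). Neurog3 (Entrez gene 11925) was at 29.1, 89.5, 53.4 and 34.0 on the GFPbright arrays, at 242.1, 123.5 and 205.8 on the GFPdim arrays and at 3.8, 4.0 and 4.8 on the villus arrays, where it was not above background. It was 3.93-fold higher in GFPdim than in GFPbright (log2 difference 1.97, standard error 0.35) and at least 24.6-fold higher than in villus (adjusted p = 0.0263 from limma). Its own spread is wide within both crypt groups. Leaving out any one of 8 of the 10 arrays lost the call (all but GFPbright 2 and GFPdim 2), with the direction kept. The call was also lost with an offset of 16 and with the mean of probe sets. Another probe set of Neurog3, with a highest group mean of 17.7, kept the direction (log2 1.255 and 1.811) and was not called.

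The factors that act after Neurog3 had less spread. Insm1, a zinc finger factor of endocrine differentiation, was at 5.8 to 8.1 in GFPbright, at 34.1, 34.2 and 38.3 in GFPdim and at 5.5 to 7.4 in villus, so at least 4.76-fold higher in GFPdim than in either group (adjusted p = 1.39e-05, limma). Nkx2-2, a homeodomain factor, was at 33.3, 30.3 and 31.5 in GFPdim and not above background in either other group, at least 4.25-fold higher (adjusted p = 5.11e-06, limma). Isl1, a LIM homeodomain factor, stood at 58.5, 38.1 and 48.2 in GFPdim, at 6.2 to 8.5 in GFPbright and at 10.4 to 12.7 in villus. These 3 genes were called without each single array. St18 and Pax4, at lower intensities, reached means of 12.2 and 13.7 in GFPdim and were not above background elsewhere. Neurod1, which is expressed after Neurog3, had means of 15.4 in GFPbright, 139.7 in GFPdim and 84.1 in villus and was not called a peak gene, and Sox4 was at 1882 in GFPbright, 608.0 in GFPdim and 41.0 in villus. Thus the list also held genes that were still measured in villus or highest in stem cells. Against GFPbright, 9 of the 26 factors were called higher and 3 lower (6.69% and 12.0% of all genes). Against villus, 17 were called higher and 1 lower (21.7% and 21.1% of all genes).

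Hormone genes differed in where they were highest. Of 22 genes for hormones and amine enzymes, 13 were higher in GFPdim than in GFPbright (6.69% of all genes) and none was lower (12.0% of all genes), while 4 were higher than in villus (21.7% of all) and 5 were lower (21.1% of all). Peak genes were Tac1, Gcg and Ghrl. Tac1 (Entrez gene 21333), the precursor of substance P, was at 27.7, 54.3, 31.0 and 30.5 in GFPbright, at 941.3, 757.7 and 1110.6 in GFPdim and at 29.6, 34.9 and 18.3 in villus. It had the largest prominence of all peak genes, 26.8-fold over GFPbright and 34.7-fold over villus (log2 4.74, standard error 0.26, and 5.12, standard error 0.28; adjusted p = 5.11e-06 from limma). Gcg (Entrez gene 14526), which encodes glucagon and the glucagon-like peptides, was at 9.9 to 20.8 in GFPbright, at 730.9, 418.0 and 673.3 in GFPdim and at 63.3, 73.7 and 35.2 in villus. It was 43.8-fold higher than in GFPbright and 10.8-fold higher than in villus (adjusted p = 0.00035, limma). Ghrl (Entrez gene 58991), the ghrelin gene, was nearly the same on the 3 GFPdim arrays, at 275.3, 279.1 and 296.7, against 93.8, 75.2 and 58.5 in villus and a mean not above background in GFPbright. GFPdim was at least 38.1-fold above GFPbright and 3.81-fold above villus.

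Cck, the gene of cholecystokinin and one of the markers given for these cells, was not a peak gene. It was at 8.70 ± 3.03 (SD, n = 4) in GFPbright, at 633.4, 493.2 and 578.0 in GFPdim and at 427.4, 364.5 and 224.1 in villus. The GFPdim arrays were above every villus array by a mean of 1.73-fold, a difference that passed on its own (adjusted p = 0.041 from limma) but not as a peak. Gip, Sst and Tph1, for the hormones GIP and somatostatin and the enzyme of serotonin synthesis, had GFPdim means of 2466, 222.6 and 145.2 and villus means of 1656, 160.2 and 111.7, and did not pass it either. Other hormone genes were higher in villus than in GFPdim. Sct, the secretin gene, had means of 17.1 in GFPbright, 252.3 in GFPdim and 632.7 in villus, and Nts, which encodes neurotensin, of 5.35, 43.7 and 642.5. Pyy, Ddc and Cartpt were also higher in villus than in GFPdim (called in limma). Of the 5 markers, then, Neurog3, Gcg, Mmp7 and Itln1 were peak genes and Cck was not.

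Genes of the secretory granule and of excitability gave 7 peak genes among 44 measured (0.55% of all genes), with 25 GFPdim means above both groups (18.9% of all) and 4 below both (27.0% of all). Chgb, a granin of the granule core, was at 100.5 to 193.5 in GFPbright, at 2625, 2389 and 3332 in GFPdim and at 1178, 949.7 and 781.8 in villus, a 20.9-fold and a 2.88-fold difference (adjusted p = 0.0196, limma). Its call was lost without GFPdim 1, GFPdim 3, villus 2 or villus 3. Chga, its relative, had means of 15.4, 448.9 and 147.0 in the same order and lay just outside the threshold (adjusted p = 0.0607, limma). Ptprn2, a granule membrane protein, was 14.7-fold above GFPbright and 4.05-fold above villus. Rab3c, Rimbp2, Syt13 and Scn3a, which serve vesicle release and excitability, had low GFPdim means of 10.8 to 26.1 and were near or under background in the other groups. The call of Syt13 was lost without GFPdim 1, GFPdim 2, villus 2 or villus 3. Bex2, 2.81-fold above GFPbright and 2.24-fold above villus, completed the peak genes. Resp18, another granule protein, was higher in villus than in GFPdim (limma), with means of 27.1 and 10.7.

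**Figure D2:**
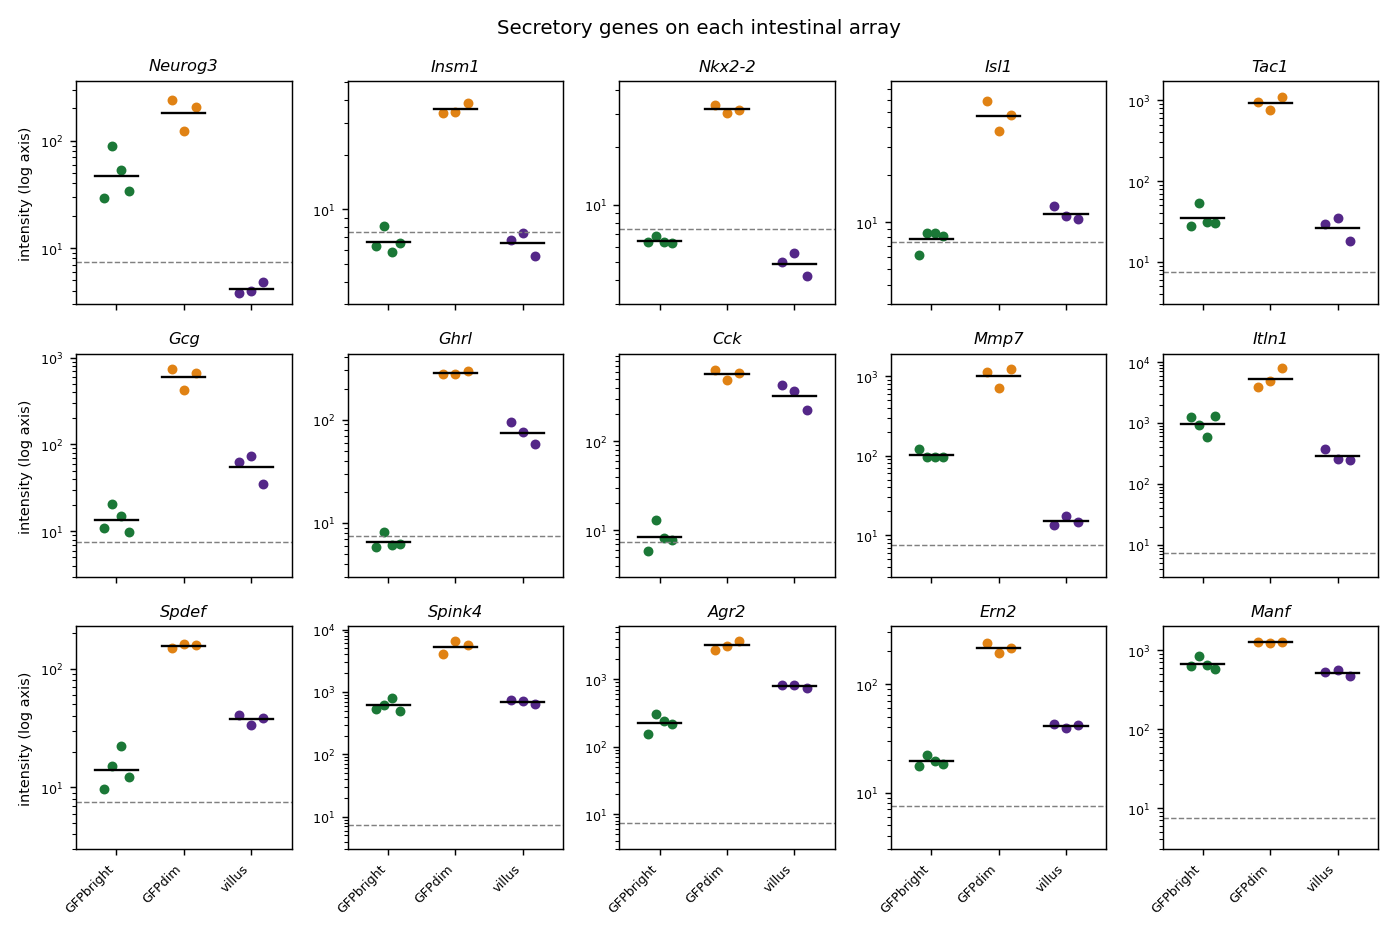
Intensity (log axis) of 15 secretory genes on each GFPbright (4), GFPdim (3) and villus (3) array, with the bar at the mean of log2 values and the dashed line at the background level of 7.45. The 3 GFPdim arrays lie above all other arrays in each panel, and for Cck the villus arrays come close.

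The list of Paneth cell genes gave 6 peak genes among 21 measured (0.55% of all genes): Mmp7, Nupr1, Defa21, Clps, Itln1 and Reg4. Membership in the list does not make a gene particular to Paneth cells. Of the 21 genes, 12 had a GFPdim mean above both groups (18.9% of all genes) and none had one below both (27.0%). Mmp7 (Entrez gene 17393), the protease that activates alpha-defensins, was at 121.0, 96.2, 96.8 and 96.0 in GFPbright, at 1138, 720.2 and 1233 in GFPdim and at 13.4, 17.6 and 14.8 in villus. It was 9.84-fold higher than in GFPbright and 66.2-fold higher than in villus (log2 3.30, standard error 0.19, and 6.05, standard error 0.20; adjusted p = 5.11e-06, limma). Itln1 (Entrez gene 16429), a lectin, was at 1255, 923.8, 599.6 and 1326 in GFPbright, at 3835, 4896 and 7993 in GFPdim and at 368.8, 256.9 and 248.3 in villus, so that even its lowest GFPdim array exceeded all others. Defa21, an alpha-defensin, reached 2420 ± 618 (SD, n = 3) in GFPdim, 8.19-fold above GFPbright and at least 317-fold above villus. Alpha-defensin genes are nearly identical to each other, so this probe set may also read relatives. The GFPbright arrays carried these Paneth transcripts too, at a lower level. In villus Mmp7 was low and Defa21 was not above background, whereas Reg4, Clps and Nupr1 had higher means there than in GFPbright. Reg4 had means of 89.7 in GFPbright, 1660 in GFPdim and 546.3 in villus. Clps was at 110.7, 1093 and 208.3 in the same order, and Nupr1 at 19.3, 218.0 and 23.5. Against villus, 12 of the 21 genes were called higher in GFPdim and 4 lower (21.7% and 21.1% of all genes). Lyz2, at means of 3860 in GFPbright, 9581 in GFPdim and 298.6 in villus, was higher in GFPdim than in each (limma) and was not a peak gene by the stricter rule. Reg3b and Reg3g, lectins that enterocytes also make, had their highest mean in villus (7264 and 4221, against 3137 and 979.3 in GFPdim).

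The list of goblet cell genes gave the most peak genes, 16 of 41 (0.55% of all genes). In it 28 GFPdim means were above both groups (18.9% of all genes) and none was below both (27.0%). Its median log2 contrast was 1.85, against -0.03 over all genes. Spdef, the transcription factor of goblet and Paneth cell maturation, was at 9.7 to 22.1 in GFPbright, at 148.6, 162.3 and 158.6 in GFPdim and at 33.5 to 40.8 in villus, an 11.1-fold and a 4.17-fold difference (adjusted p = 0.00142, limma). Agr2, an ER enzyme needed for mucin folding, was at 2741, 3134 and 3692 in GFPdim, 14.2-fold above GFPbright and 3.98-fold above villus. Spink4, a secreted protease inhibitor, was at 4086, 6669 and 5621 in GFPdim and stood at about equal levels in GFPbright (617 ± 134, SD, n = 4) and villus (696 ± 50.4, SD, n = 3). The chemokine gene Ccl9 had the second largest prominence of all genes, at 749.3, 1061 and 829.6 in GFPdim against 29.6 to 96.8 in GFPbright and 23.2 to 29.1 in villus. Ccl6, its neighbour in the chemokine family, was 17.5-fold above GFPbright and 3.23-fold above villus.

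Some products of mature goblet cells also had high levels in villus. Tff3, a mucus peptide, had means of 895.3 in GFPbright, 6763 in GFPdim and 5882 in villus. Fcgbp, which binds mucin, was at 246.6, 4450 and 3378, and Zg16, a lectin of mucus, at 283.6, 6304 and 9020. None of these 3 was a peak gene or called different between GFPdim and villus. Clca1 was lower in GFPdim than in villus (limma), with means of 1852 and 3819. Other abundant secreted products of the list were peak genes. Guca2a, the precursor of guanylin, was at 2232, 2213 and 2128 in GFPdim, 26.8-fold above GFPbright and 2.84-fold above villus, and Klk1, a kallikrein, was 6.02-fold and 3.64-fold above. The call of Guca2a was lost without any one of 7 arrays and that of Klk1 without GFPdim 1, GFPdim 3, villus 1 or villus 3.

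Genes of protein folding in the ER, which secretory cells need in quantity, were mostly above both groups. Of 39 genes, 29 had a GFPdim mean above both (18.9% of all genes) and 7 were peak genes (0.55% of all). Ern2, the form of the stress sensor IRE1 made by mucus-producing cells, was at 237.8, 193.0 and 213.6 in GFPdim against 17.5 to 22.3 in GFPbright and 39.0 to 42.8 in villus, an 11.1-fold and a 5.18-fold difference (adjusted p = 5.11e-06, limma). The other 6 were 1.68-fold to 2.83-fold above GFPbright. Manf, a secreted protein of the stress response, was at 1272, 1217 and 1281 in GFPdim, 1.90-fold above GFPbright and 2.46-fold above villus (not called without GFPdim 3), and Sec61a1, the channel of the translocon, was 1.84-fold and 2.23-fold above. Another probe set of Sec61a1 was called as well. Further ones, with highest group means of 71.0 and 104.4, were lower in GFPdim than in villus (log2 -1.537 and -0.846). Pdia6 (Entrez gene 71853), the disulfide isomerase whose promoter is shown above, was at 545.3 to 676.4 in GFPbright, at 1101, 887.5 and 990.3 in GFPdim and at 133.2 to 171.7 in villus, which made it 1.68-fold and 6.56-fold higher. Its call was lost without any one of 6 arrays. Hyou1, Pdia5 and Txndc5 completed the peak genes. Xbp1 and Hspa5, the factor and the chaperone at the centre of this response, had GFPdim means of 1926 and 1672 and were not peak genes. P4hb and Edem1 were lower in GFPdim than in villus (limma).

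Of 40 genes of secretory fate and the Notch pathway, which decides between both fates, 3 were peak genes (0.55% of all genes): Spdef, Id4 and Cbfa2t3. Id4, an inhibitor of basic helix-loop-helix factors, was at 58.0, 51.0 and 45.4 in GFPdim, at 6.5 to 13.7 in GFPbright and at 6.7 to 7.7 in villus. Id1, Id2 and Id3, its relatives, were not called higher or lower than either group. Atoh1, the factor that commits cells to the secretory fate, had means of 26.2 in GFPbright, 119.8 in GFPdim and 81.4 in villus and was no peak gene, and the ligand Dll1 was at 157.7, 260.6 and 215.9. The receptor Notch1 fell from stem cells to GFPdim to villus (574.8, 137.6 and 20.9). Genes of tuft cells held no peak gene among 27. Of these, 7 were higher in GFPdim than in GFPbright (6.69% of all genes) and none was lower (12.0% of all genes). Against villus, 17 were lower (21.1% of all genes) and 2 higher (21.7% of all genes). The lower ones included the kinase Dclk1, with means of 6.28, 14.8 and 37.8 in GFPbright, GFPdim and villus. The channel Trpm5 was another, with means of 9.48, 14.4 and 40.5.

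**Figure D3:**
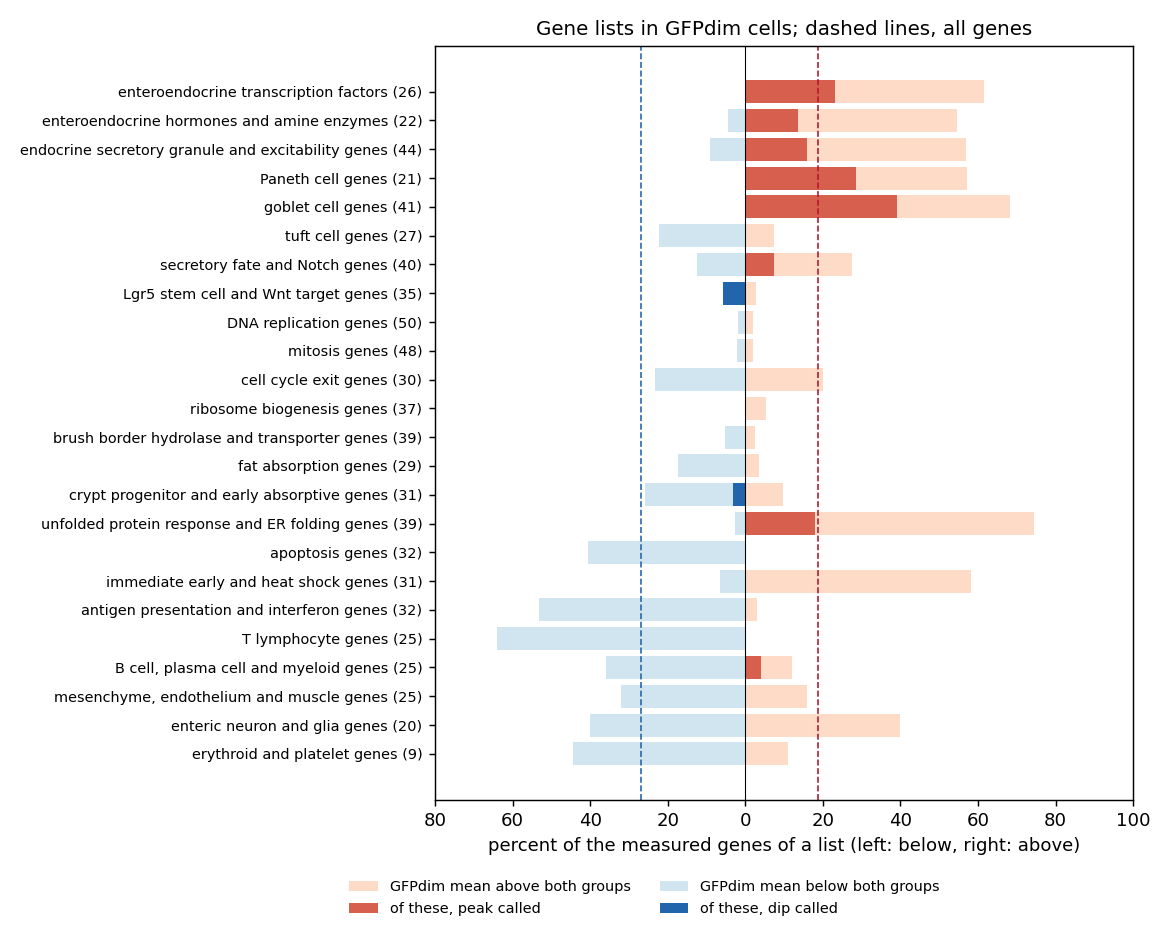
For each gene list (number of measured genes in brackets), the share of genes with the GFPdim mean above both other groups (light red, right) or below both (light blue, left), and the share called peak (red) or dip (blue). The dashed lines mark all genes, at 18.9% above and 27.0% below. Called shares are largest for goblet, Paneth and endocrine factor genes.

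Peak genes outside the lists included further genes of secretory cells. Bhlha15, a basic helix-loop-helix factor of cells with a large secretory apparatus, was at 72.7, 116.8 and 121.7 in GFPdim, 4.24-fold above GFPbright and 6.47-fold above villus. Trpa1, an irritant-sensing channel of enterochromaffin cells, was at 60.0, 58.0 and 67.7 in GFPdim, at 6.8 to 8.6 in GFPbright and at 9.4 to 16.4 in villus. Hpd, an enzyme of tyrosine breakdown, was 10.6-fold above GFPbright and at least 20.3-fold above villus. Selenom, an ER selenoprotein, reached 528.8 ± 55.9 (SD, n = 3) against 61.7 ± 22.3 (SD, n = 4) and 85.0 ± 22.5 (SD, n = 3). Hmgn3, a nucleosome-binding protein, and Rap1gap, an activator of the GTPase of Rap1, were 5.89-fold and 6.35-fold above GFPbright. Rap1gapos, read from the opposite strand of Rap1gap, was also a peak gene at a mean of 15.2. Rbp7, a retinoid-binding protein, varied widely, at 238.1, 116.3 and 400.9 in GFPdim and 9.3 to 53.0 in GFPbright, and its call was lost without any one of 6 arrays.

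Several more of the 49 genes, named here after their values were seen, belong to secretion or signal reception. Rab27a and Myrip, which carry granules to the membrane, had GFPdim means of 27.3 and 12.3. Fkbp11, Dnajc10, Ostc and Qsox1 act in folding or glycosylation in the ER or beyond it, and Selenos and Ckap4 are ER membrane proteins. Dnajc10, for one, was at 469.8, 349.2 and 434.2 in GFPdim against 144.1 to 180.4 and 94.8 to 127.8 in GFPbright and villus. Other probe sets of Selenos, with highest group means of 321.5 and 92.5, differed from villus by a log2 of only 0.153 and 0.31. They were not called. Scgn, a calcium-binding protein of endocrine cells, was at 39.0, 38.4 and 40.3 in GFPdim and at 7.9 to 13.2 on all other arrays. Ffar2, a receptor for short-chain fatty acids, and Gfra3, a receptor of neurotrophic factors, were 5.05-fold and 3.29-fold above GFPbright. Abundant genes were among them as well. Krt19, a keratin, was at 4084, 4839 and 4618 in GFPdim, 1.68-fold above GFPbright and 5.28-fold above villus, and Gpx1, a glutathione peroxidase, was 1.70-fold and 3.79-fold above. These calls were less steady, since Krt19 kept its call in 4, Gpx1 in 3 and Qsox1 in 1 of the 10 fits without 1 array.

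No single GFPdim array held most of the highest values of the peak genes. GFPdim 1 was the highest of the 3 for 33 of the 94 genes, GFPdim 2 for 26 and GFPdim 3 for 35. When arrays were left out 1 at a time, 53 of the 94 genes were called without each single array, and the number of peak genes was between 62, without GFPdim 3, and 92, without GFPdim 1. In villus the mean was above that of GFPbright for 46 of the peak genes and below it for 48. For 24 genes GFPbright was not above background, for 24 villus was not, and for 17 neither was. Of the 112 peak and dip genes, 53 have further probe sets, 61 of them above background, and 49 of these 61 gave the same direction while 17 were called.

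Dip genes were fewer and rested more on single arrays. Sp5 (Entrez gene 64406), a transcription factor gene activated by Wnt signals, was at 172.9, 111.2, 128.8 and 145.3 in GFPbright, at 18.1, 22.3 and 19.1 in GFPdim and at 175.9, 144.9 and 122.6 in villus. It was 6.97-fold lower than in GFPbright and 7.40-fold lower than in villus (log2 -2.80, standard error 0.17, and -2.89, standard error 0.18; adjusted p = 7.03e-05 from limma). The GFPbright and villus ranges overlapped, with the GFPdim arrays far below both. Sp5 was the one dip gene called without each single array. The number of dip genes was 1 without GFPbright 1, GFPbright 2, GFPbright 4, GFPdim 1 or villus 2, 2 without GFPdim 3, 3 without villus 1, 4 without GFPdim 2, 10 without villus 3 and 14 without GFPbright 3. It was 9 with an offset of 16 added to the intensities and 4 with the mean of all probe sets of a gene.

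The other dip genes are given with this limit. Lamb3, a chain of the basement membrane protein laminin, was at 59.4 ± 13.6 (SD, n = 4) in GFPbright, at 9.4, 23.9 and 14.3 in GFPdim and at 91.6 to 132.1 in villus. Sema7a, a membrane-anchored semaphorin, was at 197.8 to 263.0, at 42.1, 57.8 and 29.6, and at 105.3 to 129.2. Both were separated from all other arrays. Rdh9, a retinol dehydrogenase, and Tspan5, a tetraspanin, were 3.08-fold and 2.35-fold lower than in GFPbright, and 86.3-fold and 16-fold lower than in villus, where they were highest. Another probe set of Tspan5 differed from GFPbright by a log2 of only -0.222 and was not called. In 15 of the 18 dip genes the villus mean was above the GFPbright mean.

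The abundant dip genes differed by smaller folds. App, the amyloid precursor, was at 2001 to 3141 in GFPbright, at 1027, 1165 and 1172 in GFPdim and at 2827 to 3197 in villus, 2.22-fold and 2.64-fold lower. Vdr, the vitamin D receptor, was at 571.6, 612.5 and 578.6 in GFPdim and about equal in the other groups (1226 ± 94.4, SD, n = 4, and 1223 ± 269, SD, n = 3). Tle3, a corepressor that binds Tcf factors, was at 75.3, 76.0 and 75.5 in GFPdim, 2.07-fold and 2.54-fold lower. Its other probe sets differed from GFPbright by a log2 of only -0.333 and -0.129 and were not called. Glrx, a glutaredoxin, was at 434.9, 630.2 and 660.5 in GFPdim. Tnfsf10, the ligand TRAIL, was 2.59-fold and 2.44-fold lower, and Fras1, Elmo1, Exph5, Nek6 and Ccdc82 were 1.93-fold to 2.5-fold lower than in GFPbright. Mtus1, Tmprss4 and Rabgap1l, named beyond the rule, were 1.62-fold to 1.86-fold lower than in GFPbright.

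**Figure D4:**
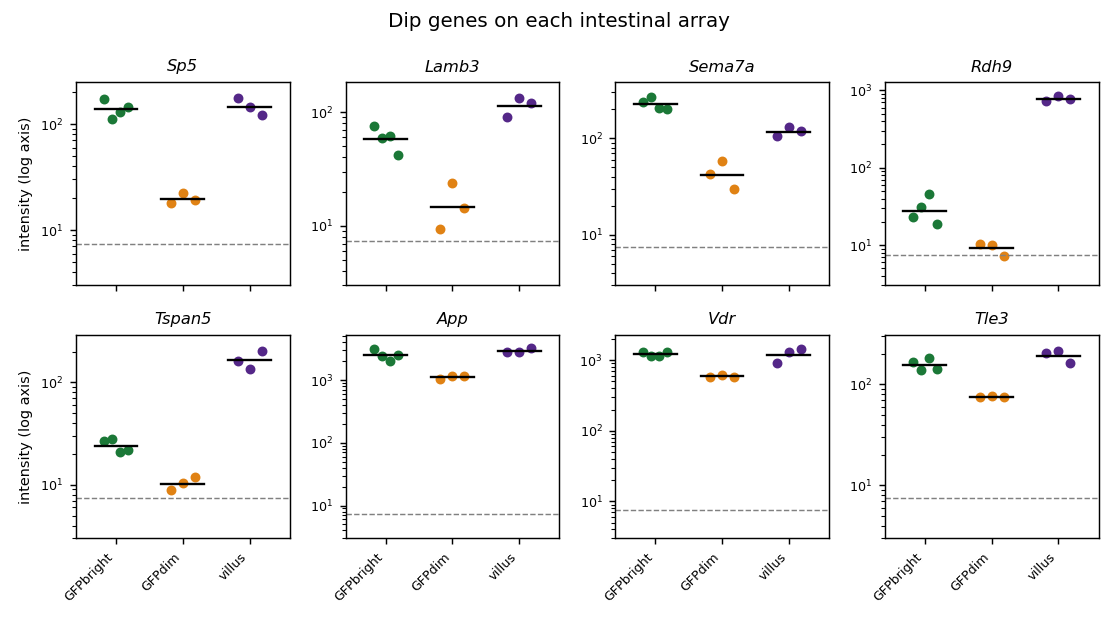
Intensity (log axis) of 8 dip genes on each GFPbright (4), GFPdim (3) and villus (3) array, with the bar at the mean of log2 values and the dashed line at the background level of 7.45. The GFPdim arrays lie below all others in each panel, and Sp5 stands at similar levels in GFPbright and villus.

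Sp5 and Vdr were the dip genes in a list of 35 genes of stem cells and Wnt targets. GFPdim was lower than GFPbright in 29 of the 35 (12.0% of all genes) and higher than villus in 23 (21.7% of all genes). Ascl2, a transcription factor of stem cells, had means of 452.7, 42.1 and 6.67 in GFPbright, GFPdim and villus, and Smoc2 of 1037, 258.5 and 14.2. Axin2, a feedback inhibitor of Wnt signals, was at 591.1, 113.9 and 80.9, and its GFPdim and villus levels were not called different.

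Genes of cell division and of absorption lay between the other groups rather than at an extreme. Of all genes, 21.7% were higher and 21.1% lower in GFPdim than in villus, and 6.69% higher and 12.0% lower than in GFPbright. Of 48 mitosis genes, 46 were higher in GFPdim than in villus and 29 were lower than in GFPbright, with no peak or dip gene. Mki67, a protein of dividing cells, had means of 1051, 746.8 and 20.9 in GFPbright, GFPdim and villus. Of 50 DNA replication genes, 49 were higher than in villus and 39 lower than in GFPbright. Of 37 ribosome biogenesis genes, 36 were higher than in villus and 19 lower than in GFPbright. Of 39 brush border genes, 26 were higher than in GFPbright and 37 lower than in villus. Alpi, the alkaline phosphatase of enterocytes, was at means of 26.7, 947.8 and 7074.

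Where GFPbright and villus means differed by a log2 of at least 2, GFPdim was mostly nearer to GFPbright. Only genes above background in a group were taken. In 1066 genes the villus mean was at least 4 times the GFPbright mean (a log2 of 2 or more). Their GFPdim means lay a median of 19.1% of the way from GFPbright to villus on the log2 scale (quartiles 5.44% and 37.2%). The GFPdim mean was past the villus mean in 30 of them and behind the GFPbright mean in 162 (15.2%). In 1374 genes at least as much lower in villus, the median was 21.7% (quartiles 14.2% and 33.3%). Of these, 4 were past the villus mean and 42 (3.06%) behind the GFPbright mean. Single GFPdim arrays gave 10.5%, 21.8% and 25% for the first set and 28.7%, 15.2% and 22.2% for the second, so that GFPdim 1 was the nearest to GFPbright in the first and the farthest in the second. These positions use the GFPbright mean in both parts of the ratio and are a description. In the pairwise differences 35.8% of the genes called between GFPdim and GFPbright were higher in GFPdim. With quantile normalization the share was 47.4%, and without GFPdim 1 it was 48.9%. Without that array the share of higher genes in the contrast was 59.7%, against 49.1% with it.

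**Figure D5:**
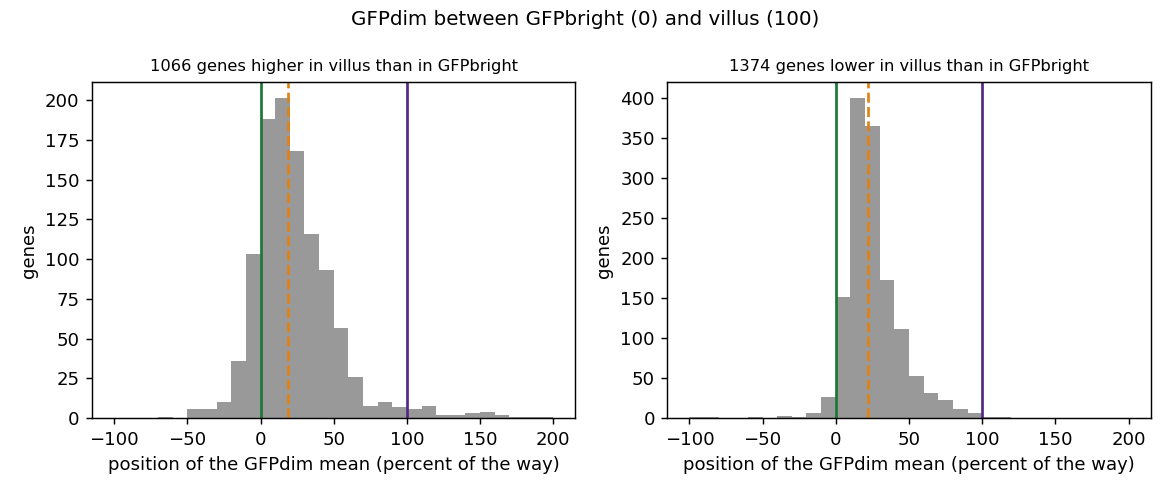
Number of genes (y axis) by the position of the GFPdim mean between GFPbright (0, green line) and villus (100, purple line), in percent of the way on the log2 scale. Shown are genes above background in a group that differ between GFPbright and villus by a log2 of at least 2. The dashed lines mark the medians, 19.1% for the 1066 genes higher in villus and 21.7% for the 1374 lower ones, and values beyond the axis are drawn at its ends.

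Markers of other cell types were looked at beside these results. T lymphocyte genes had no peak or dip gene among 25, and their summed intensity was 159.0 to 192.7 in GFPbright, 151.1 to 174.1 in GFPdim and 2411 to 3638 in villus. Ptprc, which other leukocytes also express, and Cd3g, a T cell gene, were not above background in GFPbright or GFPdim. They had means of 156.0 and 113.4 in villus. Differences from villus thus include lymphocyte genes, of which 21 of 25 were lower in GFPdim (21.1% of all genes). Of the list of B cell, plasma cell and myeloid genes, 1 of 25 was a peak gene: Kit, a receptor of mast cells and of some epithelial cells, at 59.1, 49.0 and 50.7 in GFPdim against 13.4 to 28.4 in GFPbright and 9.4 to 14.0 in villus. Its call was lost without GFPbright 4, GFPdim 1 or GFPdim 3. The mast cell genes Mcpt1, Mcpt2 and Cpa3 were not above background in any group. Summed intensities of that list were 8083 to 13334 in GFPdim and 2592 to 5126 elsewhere. Lyz2, given above with the Paneth cell genes, made up most of these sums in GFPbright and GFPdim. In villus the protease gene Ctss was the highest of the list, with a mean of 2092. Lists of mesenchyme, endothelium and muscle, of enteric neurons and glia, and of erythroid cells and platelets held no peak or dip gene. The summed mesenchyme intensity was 208.0 to 366.4 in GFPbright, 473.5 to 677.4 in GFPdim and 1270 to 1885 in villus, and its part in the results was not tested. Immediate early and heat shock genes, which move when tissue is taken apart, had 18 of 31 GFPdim means above both groups (18.9% of all genes) and no peak gene. Fos was at means of 3258, 3421 and 1912 in GFPbright, GFPdim and villus. The part of tissue handling in the differences from villus was not tested.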

How the data were processed

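RNA of sorted or isolated cells was hybridised to Affymetrix HT MG-430 PM arrays. The authors made the deposited intensity values with Affymetrix Power Tools (version not given in the sources used here) by its RMA-sketch method, which corrects background, normalizes arrays together and gives 1 value per probe set. Array number and not depth limits the precision. The deposited linear intensity values were taken to log2 here with no offset. Of 45141 probe sets, 28898 name 1 gene, 551 several and 15692 none in the platform annotation, and RefSeq held the Entrez identifier for 28689 probe sets that name 1 gene. The probe set with the highest mean over the 10 intestinal arrays stood for each of 17097 genes. Groups, taken from the titles, were compared with limma 3.58.1 in R 4.3.3 and Benjamini-Hochberg adjustment, after the script was tested on simulated data. Figures were drawn with matplotlib 3.10.9.

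A code in the titles is shared by GFPbright 1 and GFPdim 1, by GFPbright 3 and GFPdim 2 and by GFPbright 4 and GFPdim 3. Residuals correlated at 0.29, 0.45 and 0.322 in these pairs and at -0.298 to 0.085 in others. The title code was therefore also fitted as a block. The labels do not state what it stands for, and a hair follicle array also carries the code of GFPbright 3 and GFPdim 2. Named genes were the 20 peak and 15 dip genes of largest prominence with separated groups and levels above background, the 5 markers, Lgr5, and up to 6 peak and 4 dip members of each of 24 lists (858 entries). Further genes were named after their values were seen. Members, lists and rule were chosen with earlier results of these data known. Alternatives covered arrays, normalization, offset, filter, probe sets, variance prior, weights, pairing, call rule and single arrays.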

Additional observations from a re-analysis of the deposited data

Results flagged for a closer look

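In 6 of 59 named genes, 1 of the 4 GFPbright arrays lay far from the other 3 by Dixon's ratio on log2 values, which chance gives in about 5% of groups. Tac1 was at 54.3 on GFPbright 2 against 27.7 to 31.0 on the others. Mmp7 was at 121.0 on GFPbright 1 against 96.0 to 96.8, and Isl1 was at 6.2 on the same array against 8.1 to 8.5. Hyou1 was at 187.8 on GFPbright 3 against 159.5 to 162.4, and Nek6 at 282.2 on that array against 212.9 to 221.0. Exph5 was at 122.4 on GFPbright 4 against 101.6 to 104.2. Tac1, Mmp7 and Isl1 were called without each single array. Hyou1 was called without GFPbright 3 and lost its call without any one of 6 other arrays. Exph5 and Nek6 were called without GFPbright 3 and lost their calls without GFPbright 4.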

How the results depend on the processing

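All 94 peak and 18 dip genes kept their direction with all 13 arrays, quantile normalization, an offset of 16 or only genes above background. It was also kept with the mean of probe sets, a trended robust prior or array weights. The title code as a block and any 9 of the 10 arrays kept it too. Most of this was fixed in advance. In these genes every GFPdim array lay beyond the other 7, so weights, the offset and left-out arrays could not change the direction. All 13 arrays, the background filter and the robust prior leave the group means as they were. Quantile normalization and the mean of probe sets could have changed the direction. Counts moved more. Peak genes numbered 155 with array weights, 258 where both adjusted p-values had to be under 0.05, and 62 to 92 without single arrays. Dip genes numbered 28 with array weights, 30 with the title code as a replicate block and 9 with the offset. They numbered 9 with every probe set tested and 4 with the mean of probe sets. Where both adjusted p-values had to be under 0.05 there were 185, and without single arrays 1 to 14. The methods' t-test, at its unadjusted threshold for both differences, called 146 peak and 82 dip genes. After Benjamini-Hochberg adjustment it called 0 of each, with 327 and 304 at an unadjusted p under 0.05 (426 and 474 in limma). GFPdim was lower than GFPbright in 1291 genes when only the 6 arrays with the 3 shared title codes were fitted with no block. This alternative was chosen after seeing the data, and all 10 arrays gave 2049. The title code as a fixed block on these 6 arrays gave counts within 1.5 times of those with all 10 arrays. The title code as a random block changed no other count by over 1.5 times. The cause of these shifts was not tested. Probe sets near background give bounds only, and 5605 genes were not above it in any group.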

Other observations

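Lists that had no place in the comparisons above are given as values. Of 32 apoptosis genes, 13 had a GFPdim mean below both groups (27.0% of all genes) and 22 were lower than in villus (21.1% of all genes), with no dip gene. Bok, a member of the Bcl2 family, had means of 67.7 in GFPbright, 32.7 in GFPdim and 143.7 in villus, and Fas, a death receptor, of 7.90, 18.4 and 191.3. Of 32 genes of antigen presentation and interferon response, 17 had a GFPdim mean below both groups (27.0% of all genes) and 21 were lower than in villus (21.1% of all genes). H2-Ab1, a class II gene, was at means of 569.5, 224.7 and 1805, with a wide spread between crypt arrays: the summed intensity of the list was 4174 to 10209 in GFPbright and 5132 to 8486 in GFPdim. Arrays GFPbright 3 and GFPdim 2, which share a title code, were the lowest of their groups. Of 30 genes of cell cycle exit, 7 were higher than in GFPbright (6.69% of all genes) and 10 lower than in villus (21.1% of all genes), and none was called a peak or dip gene.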
